A study of Caenorhabditis elegans with 2 samples.

Results

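Peaks at single-gene promoters were the ChIP-seq peaks of PHA-4 whose summit could be assigned to 1 protein-coding gene and to no other. A summit counted when it lay between 1000 bp upstream and 200 bp downstream of the start of exactly 1 protein-coding gene, and when no tRNA, snoRNA, snRNA, rRNA or miRNA gene lay within 250 bp. Of 2920 nuclear peaks in the list made from both replicates, 755 met this rule, which is 25.9% (95% Wilson interval 24.3 to 27.5%). The remaining peaks comprised 268 at promoters shared by neighbouring genes, 1386 at no promoter and 511 near a small RNA gene. The 755 peaks stood at 700 genes, or 3.50% of the 19973 nuclear protein-coding genes. Of these genes, 647 had 1 such peak, 51 had 2 and 2 had 3. The rule used position only and no measured value beyond the summit.

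The worms were whole Caenorhabditis elegans L4 larvae of strain RW12220, aged 48 h and synchronised by L1 starvation after bleaching. The strain carries st12220[pha-4::TY1::EGFP::3xFLAG] on chromosome V, a CRISPR insertion in the endogenous pha-4 gene, and the tagged protein was precipitated with an antibody against GFP from chromatin sonicated to 200 to 800 bp. There were 2 biological replicates in 1 group, so no conditions could be compared, and binding in different tissues could not be told apart. Control reads were not analysed here, and sequencing depth is unknown because no read counts were used.

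PHA-4 is the worm's FoxA factor, a forkhead protein that specifies the cells of the pharynx, is also made in the intestine and somatic gonad, and is needed for the longer life of worms on a restricted diet. FoxA proteins contact DNA through a winged-helix domain that reads short T-rich elements, and they can bind in chromatin that other factors cannot enter. Many worm transcripts receive a spliced leader in place of their original end, so an annotated gene start is often the splice site and the true start of transcription lies upstream of it.

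The summit sequences below run over 101 bp centred on the summit, on the strand of the gene, from the RefSeq copy of the WBcel235 (ce11) assembly. Only windows clear of annotated exons were eligible. First come the strongest eligible peaks with a forkhead heptamer (TGTTTGC in all 3 windows, read on either strand), with the heptamer in capitals. The serp-1.1 window is chrX:15841228-15841328 on the plus strand, that of plrg-1 is chrV:10808051-10808151 on the minus strand, and that of pro-1 is chrII:10542051-10542151 on the minus strand.
serp-1.1: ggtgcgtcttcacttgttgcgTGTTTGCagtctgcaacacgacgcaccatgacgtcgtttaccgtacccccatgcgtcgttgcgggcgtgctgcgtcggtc
plrg-1: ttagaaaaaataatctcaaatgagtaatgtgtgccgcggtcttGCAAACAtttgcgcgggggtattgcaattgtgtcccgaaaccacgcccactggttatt
pro-1: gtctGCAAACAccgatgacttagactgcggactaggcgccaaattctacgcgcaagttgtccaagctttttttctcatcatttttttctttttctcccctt

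The next windows hold CTGCGTCT, the motif with the largest difference between summits and flanks among those searched, and were chosen for it after its counts were seen. Capitals mark the motif on either strand. The epn-1 window is chrX:14818939-14819039 on the minus strand, that of fust-1 is chrII:7152139-7152239 on the plus strand, and that of cebp-1 is chrX:1454559-1454659 on the minus strand and holds the motif once in each orientation.
epn-1: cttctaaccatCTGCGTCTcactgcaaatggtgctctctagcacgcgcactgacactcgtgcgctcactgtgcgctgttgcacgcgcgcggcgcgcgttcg
fust-1: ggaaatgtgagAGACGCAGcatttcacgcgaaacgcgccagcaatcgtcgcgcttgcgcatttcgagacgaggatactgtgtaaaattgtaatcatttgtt
cebp-1: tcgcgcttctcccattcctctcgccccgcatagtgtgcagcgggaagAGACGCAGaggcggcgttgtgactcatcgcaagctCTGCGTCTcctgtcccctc

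The hsp-1 window, chrIV:17278526-17278626 on the plus strand, shows a GA repeat read on the other strand. The windows of rpl-3 (chrIII:3867526-3867626, plus strand) and rpl-35 (chrIII:7854623-7854723, plus strand) are the strongest eligible ones that held none of the 11 motifs searched.
hsp-1: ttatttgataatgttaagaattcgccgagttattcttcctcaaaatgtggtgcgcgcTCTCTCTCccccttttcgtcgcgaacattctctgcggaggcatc
rpl-3: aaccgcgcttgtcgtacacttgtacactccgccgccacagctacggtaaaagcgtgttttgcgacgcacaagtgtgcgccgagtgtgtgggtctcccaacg
rpl-35: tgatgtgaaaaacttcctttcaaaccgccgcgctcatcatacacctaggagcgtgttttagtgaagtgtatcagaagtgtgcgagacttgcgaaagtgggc

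Most summits lay upstream of the annotated start, as do most positions that the rule allows. Its window reaches 1000 bp upstream and only 200 bp downstream, and no chance model was built, so the shares below are descriptions. The median summit stood 243 bp upstream, with quartiles at 500.5 and 104.5 bp upstream. Upstream summits numbered 668 (88.5%), and 336 (44.5%) fell between 101 and 400 bp upstream. The fullest 100 bp held 136 summits, from 101 to 200 bp upstream. Within 100 bp of the start on either side there were 156 summits (20.7%).

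**Figure D1:**
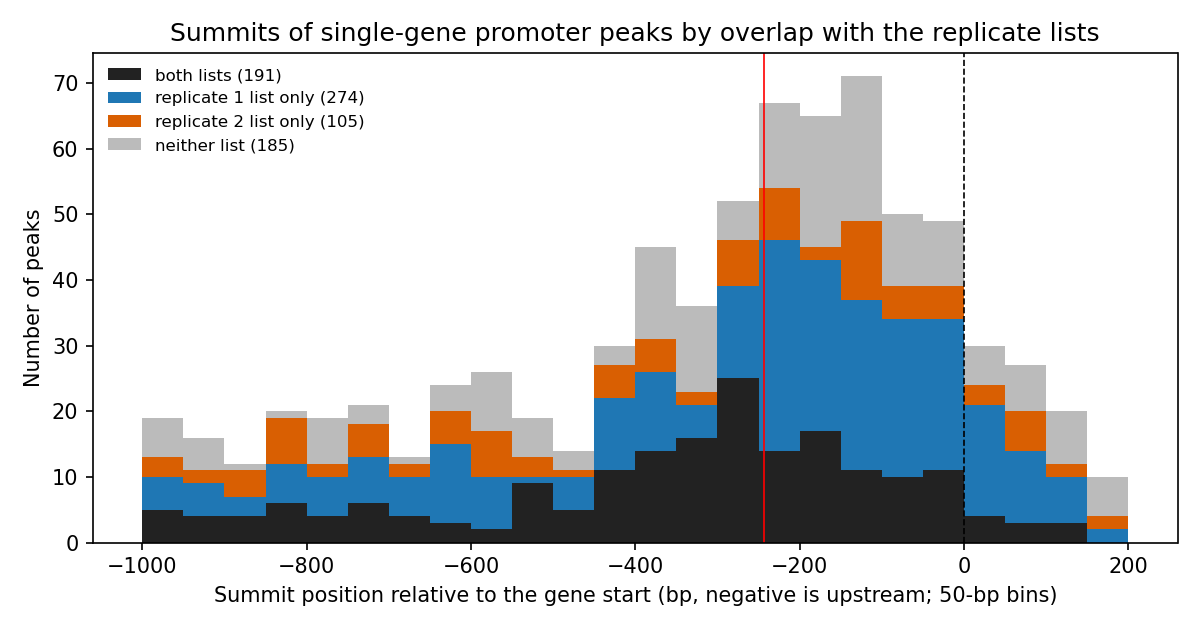
Number of single-gene promoter peaks (vertical axis) in 50-bp bins of summit position relative to the gene start (horizontal axis, bp, negative upstream), stacked by overlap with the thresholded list of each replicate. The dashed line marks the gene start and the red line the median, 243 bp upstream. In a window of 1000 bp upstream and 200 bp downstream, 88.5% of summits lie upstream.

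By the annotation of protein-coding genes, 570 summits (75.5%) lay outside them and are called intergenic here. A further 66 (8.74%) lay in a coding exon, 57 (7.55%) in a UTR exon and 62 (8.21%) in an intron. Genes of other types were not used for these places. Of the coding exon summits, 43 were in the gene that the peak was assigned to and 23 in another gene. Of the intronic ones, 47 were in another gene. The upstream neighbour ran on the same strand as the assigned gene at 502 peaks and on the opposite strand at 253. Summits between close divergent gene starts count as shared promoters, so the rule itself lowers the opposite-strand number. By chromosome, the share of protein-coding genes with such a peak was 4.48% on I, 3.36% on II, 4.55% on III, 3.60% on IV, 2.22% on V and 3.88% on X.

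The window limits cut a continuous set of positions. The summits just inside the upstream limit belonged to the histone gene WBGene00001940 at 1000 bp upstream (signal 81.9), to pgl-3, a P granule component, at 997 bp (signal 73.2), and to cec-1, a chromodomain protein gene, at 994 bp (signal 116). Just outside it were W03F9.4 at 1002 bp (signal 81.7), T13B5.9 at 1004 bp (signal 335) and Y45G5AL.1 at 1004 bp (signal 2.14). Just inside the downstream limit were F53G12.9 at 197 bp (signal 55.2), F47B8.14 at 186 bp (signal 87.4) and let-70, a ubiquitin-conjugating enzyme gene, at 185 bp (signal 85.8). Just outside it were C01A2.6 at 202 bp (signal 111.8), pyk-1, a pyruvate kinase gene, at 206 bp (signal 96.0) and cpn-4 at 209 bp (signal 12.7).

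The signal value of a peak is the authors' own, as the peak caller gave it, with a scale set within each list. It ranks peaks of 1 list and is not an amount of protein. The 755 single-gene promoter peaks had a median signal of 100.2 (quartiles 80.9 and 137, range 2.02 to 1029). The median was 94.3 over the 1654 other nuclear peaks away from small RNA genes, and 118 over the 268 peaks at shared promoters. Of the 100 strongest nuclear peaks 22 were at single-gene promoters, near the 25.9% of all nuclear peaks. Most peaks, 648 of 755, had the same width of 340 bp. All 16 peaks with a signal under 10 lay within 500 bp of a stronger nuclear summit, as did 47 of the 755 peaks in all.

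The strongest peak stood 278 bp upstream of rpl-3, which encodes the large ribosomal subunit protein uL3. Its signal was 1029 in the list from both replicates, with 672 in the ranked list of replicate 1 and 375 in that of replicate 2. The peak of rpl-35, for the large subunit protein uL29, had a signal of 610 at 461 bp upstream, with 419 in replicate 1 and 200 in replicate 2. Both peaks were in the thresholded list of each replicate.

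Other peaks of the strongest 25 lay at genes of many functions. The summit of serp-1.1, a stress-associated endoplasmic reticulum protein gene, lay 294 bp upstream with a signal of 612, and replicates 1 and 2 gave 294 and 313. That of cdc-48.1, the AAA ATPase that unfolds ubiquitinated proteins, had 565 at 169 bp upstream. That of cox-5A, a subunit of cytochrome c oxidase, had 538 at 302 bp upstream, and mog-4, a splicing helicase of the germ line sex switch, had 535 at 268 bp upstream. The replication protein gene rpa-2 had 522, and mtcu-2, for a mitochondrial tRNA modification protein, had 473. All of these were in both replicate lists.

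Also among the 25, cbp-1, the worm's CBP/p300 acetyltransferase gene, had a signal of 449 at 881 bp upstream. ints-4, an Integrator subunit gene, had 420, with the summit 6 bp downstream of the start. ntl-2, a CCR4-NOT subunit gene, had 394, puf-9, a Pumilio family gene, had 399, and the histone H4 gene his-37 had 415. The ubiquitin ligase genes wwp-1 and eel-1 had 419 and 394. The chaperone gene hsp-3, the worm's BiP, had 384 at 27 bp upstream, and epn-1, for the endocytic adaptor epsin, had 383 at 475 bp upstream. The others of the 25 were nspc-17 (457), Y39B6A.43 (404), Y62F5A.12 (366), eelo-2 (337), vig-1 (322) and cnk-1 (322). Of the 25 strongest peaks, 23 were in both replicate lists, as were 87 of the strongest 100.

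The exceptions among the 25 were in the replicate 2 list only. The summit assigned to inx-18, a gap junction innexin gene, lay 749 bp upstream in a coding exon of another gene, with a signal of 786. Replicate 1 gave 21.7 there and replicate 2 gave 782. The stronger summit at Y66A7A.4 lay 822 bp upstream in an intron of another gene, with a signal of 490, and replicates 1 and 2 gave 35.0 and 499. GC content within 100 bp of these summits was 72.1% and 73.1%, against a median of 42.3% over the 755 peaks. The part of GC content in these peaks was not tested.

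Support by both replicates covered a minority of the peaks. A peak counted as supported by a replicate when it overlapped a peak of that replicate's thresholded list by at least 1 bp. By this measure 191 of 755 peaks (25.3%, 95% Wilson interval 22.3 to 28.5%) were in both lists, against 29.2% of all nuclear peaks. A further 274 (36.3%) were in the replicate 1 list only, 105 (13.9%) in the replicate 2 list only and 185 (24.5%) in neither. The replicate 1 list held 465 of the peaks (61.6%, against 62.8% of all nuclear peaks), the replicate 2 list 296 (39.2%, against 43.6%), and the conservative list of both replicates 363 (48.08%, against 50.9%). The replicate lists held 2114 and 1643 nuclear peaks. The full ranked lists held 84912 nuclear candidates in replicate 1 and 47072 in replicate 2. Of all 755 peaks, 739 (97.9%, against 97.9% of all nuclear peaks) overlapped a candidate in replicate 1. In replicate 2, 728 did (96.4%, against 96.0%). With candidates so numerous, an overlap of 1 bp is not counted as support.

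Support was more frequent at high signal. Among the 189 strongest single-gene promoter peaks, 139 (73.5%) were in both lists and none was in neither, which allows a share of up to 1.99% (Wilson). Among the 189 weakest, 8 (4.23%) were in both lists and 95 (50.3%) in neither. Signal in the list from both replicates draws on the same reads as the replicate lists, so this is a description.

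Single-gene promoters were less often supported than promoters shared by neighbouring genes. Shares were compared by two-sided Fisher exact tests with Benjamini-Hochberg adjustment over 8 tests, with peaks as the units. For presence in both lists, the shares were 25.3% at single-gene and 39.6% at shared promoters (odds ratio 0.518, 95% interval 0.382 to 0.704, exact adjusted p = 1.24e-04). The replicate 1 list held 61.6% against 73.5% (odds ratio 0.578, exact adjusted p = 0.00184), the replicate 2 list 39.2% against 48.5% (odds ratio 0.685, exact adjusted p = 0.0150) and the conservative list 48.08% against 59.3% (odds ratio 0.635, exact adjusted p = 0.00462). The median signals of 100.2 and 118 moved with these shares, and their part in the difference was not tested.

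The 1654 other peaks away from small RNA genes pool the shared promoter peaks with the 1386 at no promoter. Presence in both lists was 39.6% at the former and 22.7% at the latter, and in the replicate 1 list 73.5% and 51.4%. Single-gene promoter peaks were not tested against the latter alone. Against all 1654 other peaks, presence in both lists did not differ detectably, at 25.3% and 25.4% (odds ratio 0.995, 95% interval 0.811 to 1.22, exact adjusted p = 1.0). Single-gene promoter peaks were more often in the replicate 1 list, at 61.6% against 55.0% (odds ratio 1.31, 95% interval 1.096 to 1.57, exact adjusted p = 0.00511). In the replicate 2 list the shares were 39.2% and 42.9% (exact adjusted p = 0.104), and in the conservative list 48.08% and 44.0% (exact adjusted p = 0.0851). The replicate 1 difference did not pass among peaks of the conservative list (exact adjusted p = 0.267), in the stronger part of the main list (exact adjusted p = 0.646) or with the window extended to 500 bp downstream (exact adjusted p = 0.0598).

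The replicate lists differed in GC content. Median GC content within 100 bp of the summit was 46.3% for peaks in both lists, 39.3% for those in the replicate 1 list only, 51.2% for those in the replicate 2 list only and 40.3% for those in neither. Across the 712 peaks with a candidate in each ranked list, Spearman's rho between signal and GC content was 0.580 in replicate 2 and -0.0645 in replicate 1. These correlations are across peaks of the same 2 libraries and describe them only. The same order of GC medians held at the other peaks away from small RNA genes, with 46.3%, 38.8%, 51.2% and 40.3%.

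**Figure D2:**
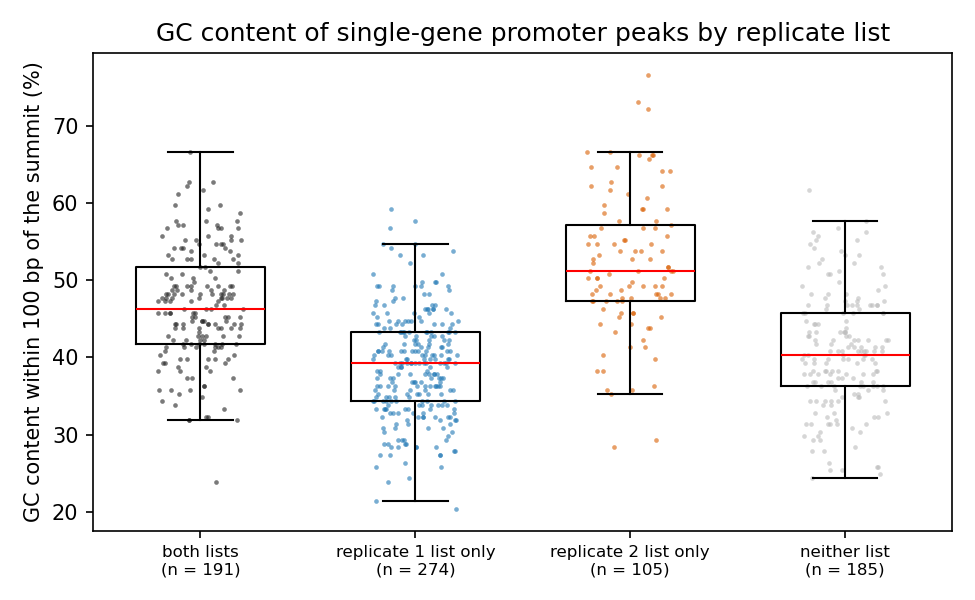
GC content (%) within 100 bp of the summit of single-gene promoter peaks, by overlap with the replicate lists; points are peaks, boxes span the quartiles with the median in red, and whiskers reach the furthest point within 1.5 box lengths. Peaks in the replicate 2 list only have the highest median, 51.2%, and those in the replicate 1 list only the lowest, 39.3%.

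Position varied with the list as well. The median summit lay 298 bp upstream for peaks in both lists, 201.5 bp for the replicate 1 list only, 306 bp for the replicate 2 list only and 211 bp for neither. Of 66 peaks in coding exons, 18 (27.3%) were in the replicate 2 list only and 8 (12.1%) in both, while of 570 intergenic peaks 71 (12.5%) were in the replicate 2 list only and 163 (28.6%) in both. Median GC content was 46.0% at coding exon summits and 42.8% at intergenic ones.

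Signals of the replicates were correlated across peaks. Pearson's r between the replicate signals was 0.399 and Spearman's rho 0.247 across the 712 peaks with both values. Across the 191 peaks in both lists, r was 0.728 and rho 0.614. Peaks in both lists were chosen for high values in each, and peaks are not independent replicates. The −log10 of the irreproducible discovery rate (IDR) between the replicates, from the authors' ranked list, had a median of 1.97 at single-gene promoter peaks, 1.83 at the other peaks away from small RNA genes and 2.37 at shared promoters.

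**Figure D3:**
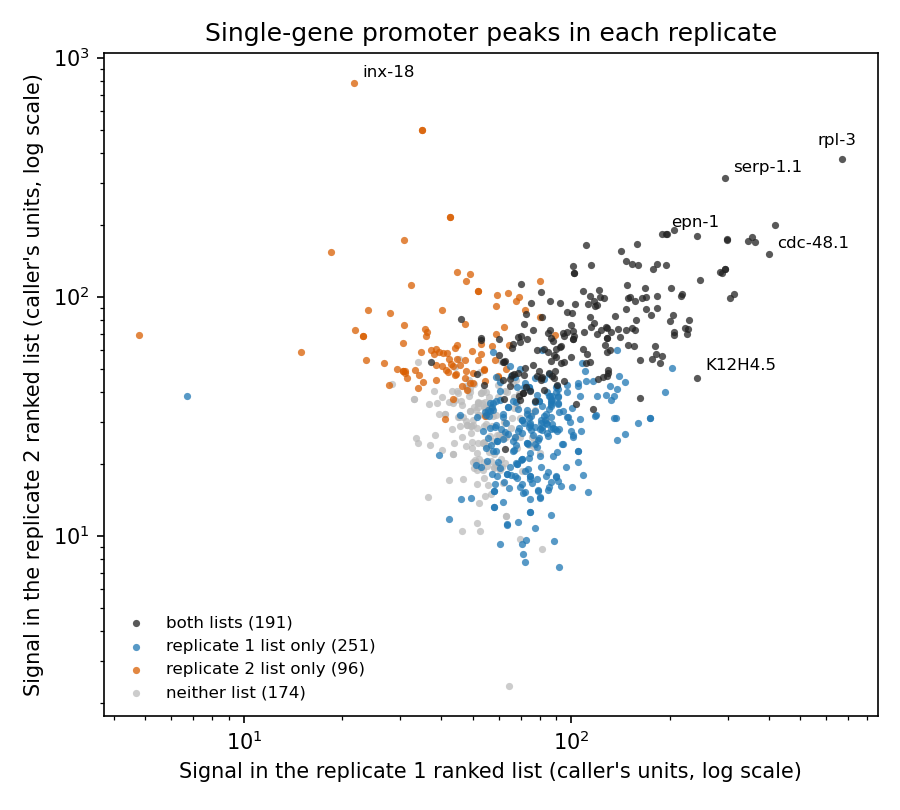
Signal of single-gene promoter peaks in the ranked list of replicate 1 (horizontal) and replicate 2 (vertical), both in the caller's units on log scales; each point is 1 of the 712 peaks with a candidate in both lists, coloured by thresholded list. rpl-3 is high in both replicates, with 672 and 375, and inx-18 is high in replicate 2 only, with 21.7 in replicate 1 and 782 in replicate 2.

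Ranks within each replicate showed which supported peaks leaned to one library. Relative to replicate 2, replicate 1 ranked highest K12H4.5 (rank 18 in replicate 1 and 169 in replicate 2), wwp-1 (8 and 49), eel-1 (7 and 40), cdc-48.1 (3 and 17) and F08G2.5 (21 and 99). Relative to replicate 1, replicate 2 ranked highest epn-1 (rank 35 in replicate 1 and 5 in replicate 2), vps-60, an ESCRT gene (100 and 15), serp-1.1 (13 and 2), puf-9 (25 and 4) and hsp-3 (31 and 6). GC content ran from 32.3 to 50.7% in the first set and from 47.8 to 62.7% in the second.

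Both genes with 3 peaks had a weaker summit beside the other two. At hmg-1.1, an HMG box gene, summits lay 227, 899 and 6 bp upstream, with signals of 110, 83.1 and 4.60. At H06H21.8 they lay 61, 789 and 994 bp upstream, with signals of 94.7, 77.3 and 13.0. The summits of hmg-1.1 at 227 and 6 bp had the same candidate in each replicate, with signals of 74.1 and 42.0, so their support was not separate.

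Function was described with 43 gene lists, which held 3732 of the 19973 genes and 143 of the 700 genes with a peak. Lists are given as counts beside the 3.50% of all protein-coding genes, with no test, and genes whose promoter peak is shared with a neighbour or near a small RNA gene are not counted as having one. Ribosomal proteins, the lysosomal proton pump and autophagy had the highest shares among lists of at least 20 genes. The chemoreceptors had a low share, with a Wilson interval of 0.0748 to 0.645%. Neuropeptides, C-type lectins and cuticle collagens also had low shares, but their Wilson intervals include 3.50%. Several lists, such as the 58 fatty acid metabolism genes, had none.

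The strongest peak of any list was that of rpl-3 among the large ribosomal subunit proteins. Of 50 large ribosomal subunit proteins, 9 (18%) had a single-gene promoter peak, with a median signal of 186, and 15 more had only shared promoter peaks. After rpl-3 and rpl-35 these included rpl-24.2 (signal 273), whose product RefSeq names a ribosome biogenesis protein, and rpl-11.2 (signal 217), while rla-0, rla-2 and rpl-4 had no promoter peak of any kind. Of 31 small subunit proteins, 7 (22.6%) had one, among them rps-24 (signal 265), rps-4 (141), rps-16 (130) and rps-11 (116). Of 38 translation initiation and elongation factors, 3 (7.89%) had one, namely eif-3.C (295), eef-1A.2 (263) and eif-3.B (118). Of 31 aminoacyl-tRNA synthetases none had one, and 2 had a shared promoter peak only.

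Ribosome assembly, nuclear pore, splicing and transcription genes had peaks at several members each. Among 18 nucleolar and ribosome assembly genes, pro-1 (signal 223), nol-56 (131) and rrp-8 (90.8) had a peak. Among 26 nuclear pore genes, 4 (15.4%) did, npp-6 (261), npp-8 (218), npp-18 (169) and npp-19 (105). Of 48 splicing genes, 4 (8.33%) did, with rsp-6 (122) next after mog-4. Of 49 genes of RNA polymerase II, TFIID and Mediator, 5 (10.2%) did, with taf-12 (138) and mdt-22 (128) the strongest. Of 70 mitochondrial ribosomal protein genes, 6 (8.57%) did, and none of those was in both replicate lists.

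Median signal was 89.1 in the V-ATPase list, 159 in the autophagy list and 199 in the vacuolar protein sorting list, beside 100.2 over all 755 peaks. Of 20 V-ATPase genes, which encode the proton pump that acidifies lysosomes, 5 (25%) had one. vha-12 had the strongest, with a signal of 156, and was the only 1 of the 5 in both lists, while vha-9 (99.05), vha-15 (89.1) and vha-20 (78.5) were in neither list. Of 24 autophagy genes, 6 (25%) had one. These included epg-7 (233), epg-8 (177), the LC3 homologue lgg-2 (172) and the GABARAP homologue lgg-1 (146), while bec-1, atg-2 and epg-2 had none. hlh-30, the TFEB homologue and a regulator of autophagy and lysosome genes, had a weak peak at 211 bp upstream with a signal of 58.7, in neither list. Of 31 vacuolar protein sorting genes, 5 (16.1%) had one, led by vps-60 (278), vps-39 (216) and vps-37 (199).

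Mitochondrial energy genes, chaperones and the ubiquitin and proteasome system had peaks at 4 to 6 genes of each list. Of 41 respiratory chain and ATP synthase genes, 6 (14.6%) had one, and cox-5B (249), cyc-1 (211) and cyc-2.1 (131) came after cox-5A. Of 59 heat shock, chaperonin and J-domain genes, 5 (8.47%) had one, with a median signal of 234, among them the constitutive HSP70 gene hsp-1 (291), dnj-9 (234) and hsp-70 (110), and 15 more had shared promoter peaks only. Of 33 proteasome subunits, 4 (12.1%) had one, with signals of 118 at rpn-11, 92.4 at pas-1, 86.5 at rpt-6 and 83.9 at rpt-3. Of 52 ubiquitin conjugation and cullin genes, 5 (9.62%) had one, with ubc-3 (125) and uba-1 (105) the strongest.

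Cell cycle, lin, unc and let genes had peaks at several members each. Of 46 cell cycle and replication genes, 6 (13.0%) had one, where cdk-5 (155), mcm-4 (131) and cdk-7 (105) followed cdc-48.1. Of 47 genes of the lin class, 7 (14.9%) had one, including lin-9, a DREAM complex subunit (287), lin-66 (225), lin-59 (166) and lin-23 (144). In the DREAM list lin-9 was the only 1 of 9 genes with a single-gene promoter peak, and 5 more had shared promoter peaks only. Of 94 genes of the unc class, 7 (7.45%) had one, led by unc-23 (260) and unc-85 (250). Of 34 let class genes, 3 (8.82%) had one, and of 72 histone genes, 6 (8.33%).

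Of 6 transcription factor lists, 3 lay above the 3.50% of all genes and 3 below it, but the Wilson interval of each includes it. Of 269 nuclear hormone receptors, 10 (3.72%) had one, among them nhr-48 (201) and nhr-49, a regulator of fat use (184). Of 63 homeobox genes of the ceh class 1 did (1.59%; ceh-5, 32.5), of 25 helix-loop-helix genes 2 did (8%; hlh-11, 254, besides hlh-30), and of 19 bZIP genes 1 did (5.26%; atf-6, 131). None of 15 forkhead genes, pha-4 and daf-16 among them, and none of 10 GATA factor genes had a peak at its promoter of any kind. The upper Wilson limits of those shares are 20.4% and 27.8%.

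Lists for the pharynx and intestine lay on both sides of the 3.50% of all genes, and their Wilson intervals include it. Of 13 pharyngeal muscle genes 1 (7.69%, 95% Wilson interval 1.37 to 33.3%) had one, eat-18, which acts with a pharyngeal acetylcholine receptor, 82 bp downstream of its start, with a signal of 110. Replicate 1 gave 27.9 there and replicate 2 gave 85.5, and it was in the replicate 2 list only. mlc-1, myo-1 and eat-2 had no promoter peak. None of 58 pharyngeal cuticle and gland genes had a promoter peak of any kind, and the upper Wilson limit of that share is 6.21%. Of 72 digestive protease, saposin and lysozyme genes 2 (2.78%) had one, spp-8 (97.7) and cpr-4 (91.9). Of 6 yolk protein genes 1 (16.7%, interval 3.01 to 56.4%) did, vit-2 (79.9). The peak of spp-8 was in the replicate 2 list only, and those of cpr-4 and vit-2 were in neither list. Of 185 detoxification genes of the cytochrome P450, UGT and GST families 5 (2.70%) had one. None of 58 fatty acid metabolism genes and none of 31 major sperm protein genes did.

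Muscle, neuron and germ line lists are small, and 1 gene in each had such a peak. They were pat-4 (85.7) of 18 body wall muscle genes (5.56%), ida-1 (111) of 16 neuronal genes (6.25%) and pgl-3 (73.2) of 22 germ line genes (4.55%). The Wilson intervals of these shares include the 3.50% of all genes. The peak of pat-4 was in neither replicate list, and those of ida-1 and pgl-3 were in the replicate 2 list only. Of 156 cuticle collagens 2 (1.28%) had one, col-63 (117) and col-72 (79.7). Of 240 C-type lectins 3 (1.25%) did, of 140 neuropeptide and insulin genes 1 (0.714%) did, ins-39 (201), and of 1364 chemoreceptors 3 (0.220%). Of 55 genes of membrane traffic GTPases and coats, 2 (3.64%) had one, sec-24.1 (202) and sec-3 (111).

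**Figure D4:**
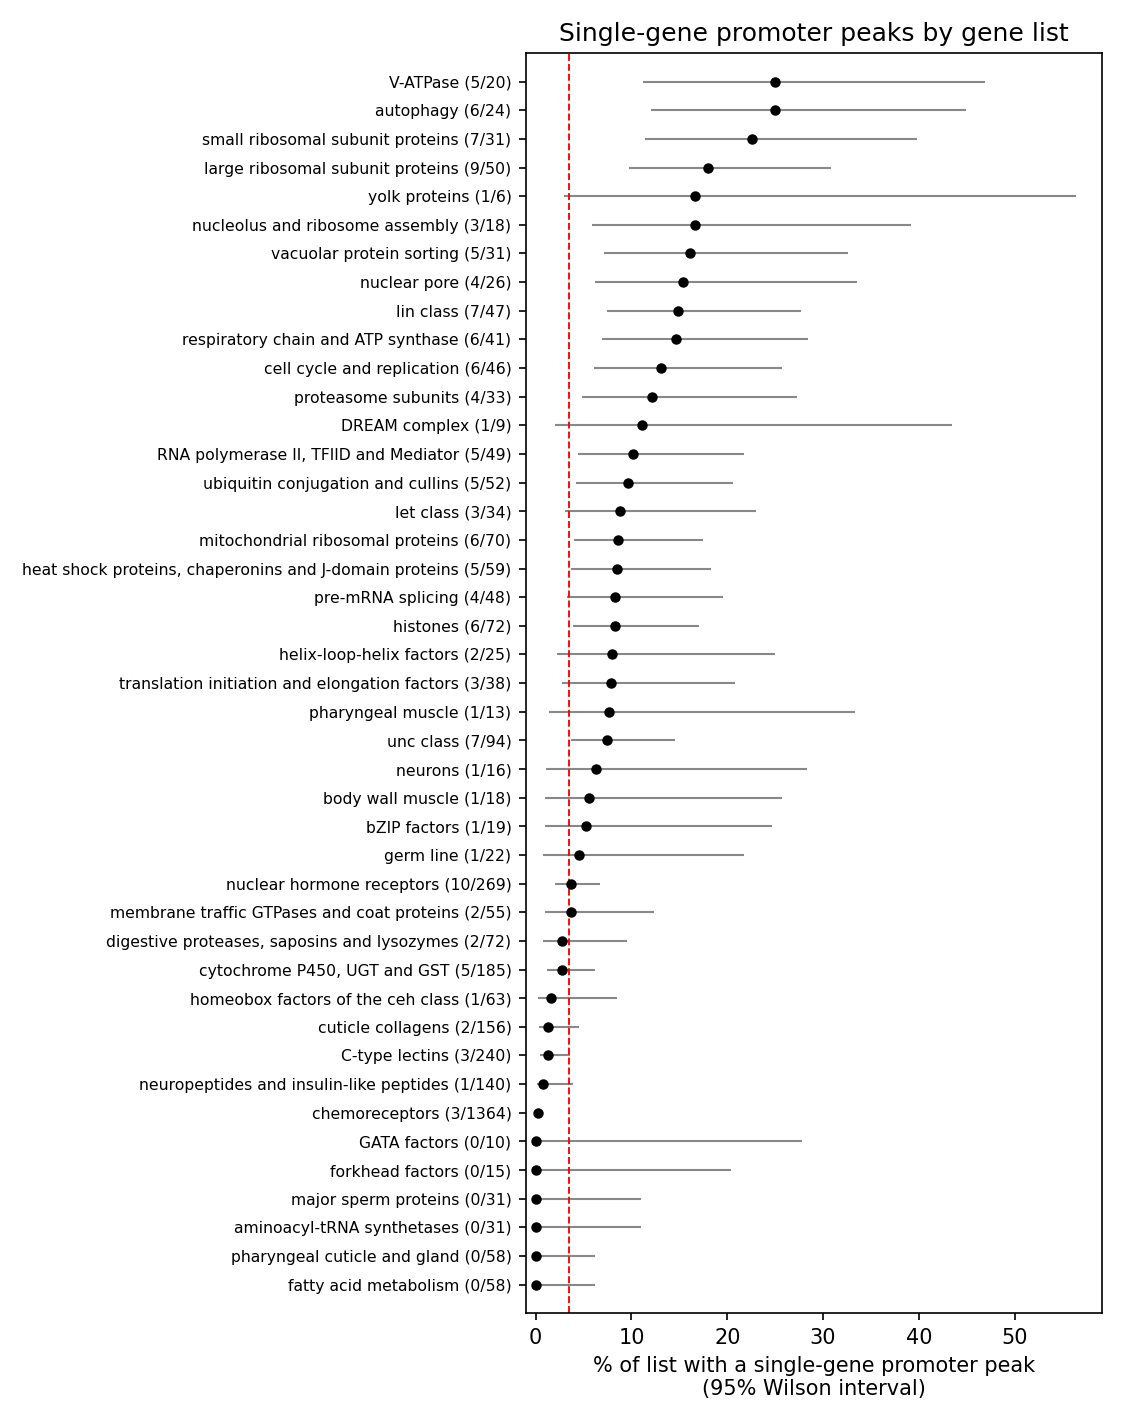
Percent of the genes of each of 43 lists with a single-gene promoter peak (horizontal axis), with 95% Wilson intervals that cover counting error over genes only; the number with a peak and the list size stand beside each name, and the dashed line is the 3.50% of all protein-coding genes. V-ATPase and autophagy lists have 25%, and 6 lists at the bottom have none.

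RefSeq product names gave the same kind of count, with words chosen after the data had been seen. All 700 genes matched a product. Ribosomal products were 3.14% of the genes with a peak and 0.886% of all protein-coding genes, RNA-binding or RNA helicase products 2.29% and 0.701%, ubiquitin products 2.29% and 0.821%, and mitochondrial products 3.57% and 1.497%. Kinases were 3.71% and 2.77%. Products whose names held a zinc finger term or the letters "ring" were 1.86% and 2.28%. Products matched by a few words for G protein-coupled receptors were 0.286% and 3.41%, and uncharacterized products 4.71% and 9.35%. The receptor words matched 681 of all genes and so missed many receptors, since the chemoreceptor list alone held 1364.

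The motif search asked whether summit windows held any of 11 chosen sequences more often than windows 500 bp away. The sequences were chosen with earlier results of these data known, so the p-values are not independent of those results. Each motif was searched on both strands in the 101 bp around each summit and around the points 500 bp to the left and right. Flanks were not matched to summits for GC content or annotation, and the part of either in the differences was not tested. The test was a two-sided exact McNemar test against each side, with the larger p kept and adjusted over 11 motifs. Beside it stands the share among windows of the same length centred 250 bp upstream of all 19973 protein-coding gene starts. Motifs overlap in letters, since all the forkhead heptamers are cases of the PHA-4 consensus.

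The published PHA-4 consensus (a thymine, a purine, a pair of thymines, a guanine or thymine, a purine and a pyrimidine) was as common in flanks as at summits. It was in 206 of 755 summit windows (27.3%), against 26.95% of flanking windows, a difference of 0.331 percentage points (exact adjusted p = 0.883), and in 29.9% of the windows at all gene starts. In the thresholded list of replicate 2 alone the consensus was less frequent at summits than in flanks, by -9.19 points (exact adjusted p = 0.0306), and in that of replicate 1 alone the difference was 1.92 points (exact adjusted p = 1.0). 

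Of the stricter forkhead heptamers, TGTTTGC was in 33 summit windows (4.37%) against 1.79% of flanks (difference 2.58 points, exact adjusted p = 0.0218) and 2.13% of windows at all gene starts. It was in 10.1% of windows at the 268 shared promoters (27 windows). It was in 3.26% of windows at all 1654 other peaks away from small RNA genes (54 windows), which include those 27. Of its 33 occurrences 15 were on the gene strand, and the median distance to the summit was 18 bp. By list, it was in 6.93% of the 274 peaks in the replicate 1 list only, 3.14% of the 191 in both lists, 2.86% of the 105 in the replicate 2 list only and 2.70% of the 185 in neither. With the replicate 2 list alone the difference from flanks was 0.405 points (exact adjusted p = 1.0), and with the replicate 1 list alone it was 3.93 points (exact adjusted p = 0.0159). TGTTTAC was in 8 windows (1.06%) and TATTTAC in 12 (1.59%), and neither passed the threshold. In all, 53 of the 755 peaks held at least 1 forkhead heptamer, and serp-1.1, plrg-1 and pro-1, printed above, were the strongest with exon-free windows off chromosome I.

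CTGCGTCT was the most concentrated of the motifs searched. It was in 65 summit windows (8.61%) against 0.728% of flanks (difference 7.88 points, exact adjusted p = 1.49e-10) and 1.01% of windows at all gene starts. It was in 6.89% of windows at other peaks away from small RNA genes and in 5.97% of those at shared promoters. Its 71 occurrences were split between the strands, 37 on the gene strand and 34 on the other, with a median distance of 22.5 bp from the summit. It was in 13.2% of the 189 strongest peaks and 5.82% of the 189 weakest. By list, it was in 12.04% of peaks in both lists, 10.5% in the replicate 2 list only, 6.57% in the replicate 1 list only and 7.03% in neither. The strongest peaks with it were those of Y39B6A.43, hsp-3, epn-1, fust-1, an RNA-binding protein gene (signal 304), and cebp-1, a C/EBP factor gene (signal 292). In flanks 1000 bp away or with either replicate list alone, the difference was 7.81 to 9.46 points.

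The GA repeat GAGAGAGA was in 26 summit windows (3.44%) against 0.596% of flanks (difference 2.85 points, exact adjusted p = 0.00106) and 1.00% of windows at all gene starts. It was commoner farther out, in 6.44% of the 233 summits over 400 bp upstream, 2.98% of the 336 between 101 and 400 bp upstream and 0.538% of the 186 from 100 bp upstream to 200 bp downstream. It was in 5.74% of windows at other peaks away from small RNA genes and in 3.36% of those at shared promoters. By list, it was in 7.62% of peaks in the replicate 2 list only, 5.24% in both lists, 1.46% in the replicate 1 list only and 2.16% in neither. With the replicate 2 list alone the difference from flanks was 8.38 points (exact adjusted p = 2.02e-07), and with the replicate 1 list alone it was 2.68 points (exact adjusted p = 0.00722). Peaks of hsp-1 (signal 291), K12H4.5 (282), vps-60 and eef-1A.2 were the strongest with it. A run of 8 T was less frequent at summits, in 43 windows (5.70%) against 11.0% of flanks (difference -5.30 points, exact adjusted p = 0.00745) and 12.7% of windows at all gene starts. GATA motifs, the E-box CACGTG, the heat shock core TTCNNGAA and the reversed PHA-4 consensus did not pass the threshold. The E-box was in 4.11% of summit windows against 2.19% of flanks (exact adjusted p = 0.297). A match in a window does not show that a factor bound it.

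**Figure D5:**
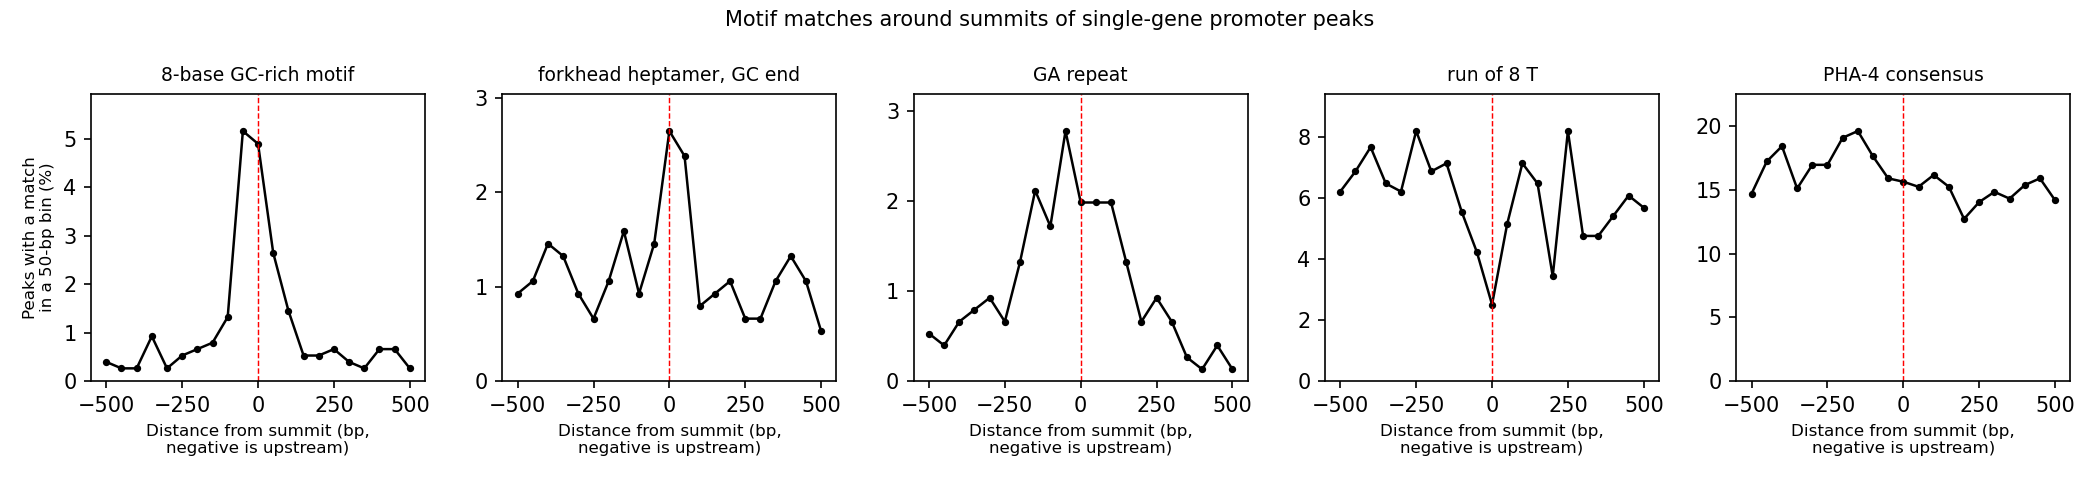
Percent of the 755 single-gene promoter peaks with a match on either strand in 50-bp bins (vertical axis, own scale per panel) by distance from the summit (horizontal axis, bp, negative upstream on the gene strand) for, from left, the 8-base GC-rich motif, the forkhead heptamer with a GC end, the GA repeat, the run of 8 T and the PHA-4 consensus. The first motif reaches 5.17% in the bin 50 bp upstream of the summit, the run of T falls to 2.52% at the summit, and the consensus has 15.6% there.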

How the data were processed

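The deposited files are peak lists of PHA-4 ChIP-seq on ce11, per the file headers. The notes deposited with them say that each list was derived from filtered alignments and a control. The aligner and peak caller are not given in the sources used here. Column 7 of the deposited lists is a signal value from the peak caller, on a scale set per list, and the authors' ranked lists carry the −log10 of the IDR. The depth is unknown, so the precision of a single peak's signal is too.

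Summits were placed on Ensembl release 115 gene starts (WBcel235), and sequence came from the RefSeq copy of that assembly; no peak or gene passed a chromosome end. A peak's value in a replicate is the signal of the strongest overlapping candidate in that replicate's ranked list. Python 3.11.15, pandas 2.3.3, numpy 2.4.6 and scipy 1.17.1 were used, with a threshold of 0.05 on adjusted p-values. P-values and Wilson intervals treat peaks or genes as units, cover counting error over them only, and say nothing about other worm populations. The rule and the motif test were tested on simulated data.

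Genes named are those at the 25 strongest peaks, up to 4 with and 3 without a peak in each list, those with 3 peaks, those at the window limits and those with the most unequal ranks between replicates. Peaks, gene lists and motifs were chosen with earlier results of these data known. Genes named for CTGCGTCT or the GA repeat, and the lists' reported order, were chosen after their values were seen. Alternatives covered the list, each replicate alone, the window, the distance to small RNA genes, any transcript's start, thinning, signal, overlap and motif windows. The 27 mitochondrial peaks and the deposited tracks were not used here.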

Additional observations from a re-analysis of the deposited data

How the results depend on the processing

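Each result was recomputed under other settings, and the same settings were added for 6 further results after the data had been seen. The number of single-gene promoter peaks was 378 with the conservative list and 364 in the stronger part of the main list, and 370 to 522 with 1 replicate list alone. The number of genes with such a peak was 353, 358 and 350 to 497 under the same settings. Both numbers stayed within 1.5 times under all other settings. The median distance to the start was -184 bp with a window of 500 bp upstream to 100 bp downstream, and -306 to -243.5 bp with 1 replicate list alone; elsewhere it moved by less than the spread between the replicate lists (SD 44.2 bp). The median signal was 133 with the conservative list, 139 in the stronger part of the main list, and 58.6 to 80.2 with 1 replicate list alone, where the scale differs.

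The difference from other peaks in presence in both lists was -0.0950 points and had no stable sign. It was 2.58 points with the shorter window, 0.0733 and 0.484 points with small RNA distances of 100 and 500 bp, 0.663 points with 1 summit per 500 bp, 1.32 points with overlap of 50% and 1.53 points with summits within 100 bp, with exact adjusted p from 0.216 to 1.0. In the stronger part of the list it was -7.82 points (exact adjusted p = 0.0335). The difference from shared promoters kept its sign and side of the threshold under all 10 alternatives, from -16.8 to -7.07 points. The replicate 1 difference fell to 3.56 points with the conservative list, 1.52 points in the stronger part and 4.36 points with the window to 500 bp downstream. The PHA-4 consensus difference was -2.65 points with the conservative list, -0.706 points with 1 summit per 500 bp and -4.12 points in the stronger part (exact adjusted p from 0.426 to 0.905). With 1 replicate list alone it was -9.19 to 1.92 points. It was 5.07 points with the shorter window (exact adjusted p = 0.205) and 4.57 points with flanks 1000 bp away, and neither passed the threshold. The cause of these changes was not tested.

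CTGCGTCT kept its call under all 13 alternatives, from 4.44 to 11.5 points. TGTTTGC missed the threshold with the conservative list (3.84 points, exact adjusted p = 0.0527), with windows of 25 bp to each side (1.66 points, exact adjusted p = 0.119) and with the replicate 2 list alone. The GA repeat missed it with the shorter promoter window (1.88 points, exact adjusted p = 0.0704). The run of T missed it there (-4.49 points, exact adjusted p = 0.0757) and with the replicate 1 list alone (-3.35 points, exact adjusted p = 0.315). No paired analysis was possible because both replicates belong to 1 group. Without read numbers and control reads, weak peaks in neither list cannot be set against background, and a peak not in a list is not shown to be absent.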
